A study of Mus musculus with 1 sample.

Results

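The 38 genes described here encode proteins that copy DNA in S phase, the stage of the cell cycle in which the genome is duplicated. They were chosen by symbol from the 32285 genes of the count matrix, and all 38 were found once each, by 1 gene identifier, in 1 single-cell RNA-seq library of mouse bone marrow. The library holds lineage-negative, Kit-positive cells from femora and tibiae of C57BL/6 control mice, whose Brd9 alleles were floxed (Brd9fl/fl) and not deleted. Kit is the receptor by which blood progenitors are sorted, and it was present at 109 counts per 1000000 UMIs (CPM) over all cells. The mice had been injected with polyinosinic-polycytidylic acid (pIpC), an inducer of interferon that switches on the Mx1-Cre transgene of the deleted group in this study, at 20 mg/kg for 3 doses on alternate days, and the cells were prepared 8 weeks later. According to the series text the injections began 4 weeks after birth in primary mice, whereas the labels of the sample name a CD45.2(+) donor and a CD45.1(+) recipient of a transplant, and which of these applies was not settled. No source used here gives the number of mice pooled. Cells of the Brd9-deleted group were not analysed here.

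Replication starts at origins, where a ring of the proteins Mcm2 to Mcm7 is loaded in G1 phase by Cdc6 and Cdt1. The ring becomes the active helicase when Cdc45 and the GINS complex join it. DNA polymerase alpha with its primase starts each new strand, Pcna is the sliding clamp that holds the polymerases on DNA, and ribonucleotide reductase supplies the nucleotides. Many of these genes are transcribed by E2F factors after cyclin E and its kinase have inactivated the retinoblastoma protein. Long-term blood stem cells divide rarely, and committed progenitors divide often.

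Each captured transcript molecule was counted once, by its unique molecular identifier (UMI). The deposited matrix held 8817 barcodes, of which 7645 passed the cell filter of the study, with a median of 18696 UMIs. To set cells of unequal depth side by side, each was thinned at random to 5000 UMIs, which left out 99 cells with fewer. Over the remaining 7546 cells the 38 genes made up 0.375% of all UMIs. There is 1 library and therefore no replicate and no test. All intervals are exact and at 95%, and they describe counting error alone. Variation from cell to cell, from mouse to mouse or from sort to sort lies outside them.

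Cells were assigned to gates by marker genes that are not among the 38. The stem gate (669 cells) carried at least 2 UMIs of Hlf, Mecom, Procr, Fgd5, Mllt3, Slamf1 or Hoxb5 and no UMI of Flt3, Dntt or Gata1. Its cells passed no list of a committed lineage and had under 10 UMIs of primary granule genes. The Dntt gate (105 cells) carried Dntt, the template-independent DNA polymerase of lymphoid progenitors. The granulocyte-monocyte gate (350 cells) was set by primary granule genes such as Mpo and Elane, the monocyte gate (1752 cells) by genes such as Csf1r and Ly86, the basophil or mast gate (186 cells) by genes such as Cpa3 and Mcpt8, and the megakaryocyte gate (548 cells) by genes such as Pf4 and Itga2b. Erythroid cells, marked by genes such as Klf1 and Car1, were split into early (652 cells) and later (615 cells) by at least 2 UMIs of red cell membrane genes such as Slc4a1 and Rhag. Genes outside the gate lists followed the names. Irf8, a factor of monocyte and dendritic fate, stood at 991 CPM in the monocyte gate and at 11.4 in the stem gate. Blvrb, which is expressed in red cell precursors, stood at 859 in the early and 1800 in the later erythroid gate against 115 in the stem gate. Kit itself ranged from 28.6 CPM in the later erythroid to 291 in the stem gate.

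A further 1686 cells passed several lists of committed lineages and 229 met the rules of no gate. Nearly all UMIs of the T and NK cell list in the 578 cells that passed it alone came from Nkg7 (2931 UMIs), while Cd3g and Gzma were at 0 and Cd3d at 1 UMI, so these cells were left unnamed. With this list as it stood, the early and later neutrophil gates held 37 and 5 cells. The neutrophil values below are therefore from gates without Nkg7, a choice made after the data were seen, which hold 288 early and 169 later cells beside a stem gate of 699. The Flt3 gate held 34 cells, too few for a value.

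The summed level of the 38 genes was lowest in the stem gate, at 8.70 UMIs per 5000-UMI cell (8.47 to 8.92), and highest in the later erythroid gate, at 36.8 (36.3 to 37.3). The basophil or mast gate (15.5, 14.9 to 16.1) and the Dntt gate (15.6, 14.9 to 16.4) followed the stem gate, and their intervals overlapped. Next came the megakaryocyte gate (16.6, 16.3 to 16.9) and the granulocyte-monocyte gate (16.6, 16.2 to 17.0), whose intervals overlapped with each other and with that of the Dntt gate. The monocyte gate stood at 19.5 (19.3 to 19.7) and the early erythroid gate at 21.5 (21.1 to 21.8). Relative to the stem gate the sum was 1.78-fold in the basophil or mast gate, 1.79-fold in the Dntt gate, 1.91-fold in the granulocyte-monocyte and megakaryocyte gates, 2.25-fold (2.18 to 2.31) in the monocyte gate, 2.47-fold (2.39 to 2.54) in the early erythroid gate and 4.23-fold (4.11 to 4.35) in the later erythroid gate.

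Within a gate the cells were far from uniform. In the stem gate the median cell had 5 UMIs of the 38 genes, with quartiles at 3 and 9, and the 90th percentile was 22. Only 166 of its cells, 24.8% (21.6 to 28.3), had 10 or more. In the early erythroid gate the median was 22 with quartiles at 13 and 29, and 82.4% (79.2 to 85.2) of cells had 10 or more. In the later erythroid gate the median was 37 and 99.5% (98.6 to 99.9) of cells had 10 or more. The variance over the mean of the sum was 8.70 in the stem gate and 3.49 in the later erythroid gate. Stem gate cells thus ranged from many with few of these transcripts to a minority as rich in them as the median early erythroid cell.

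**Figure D1:**
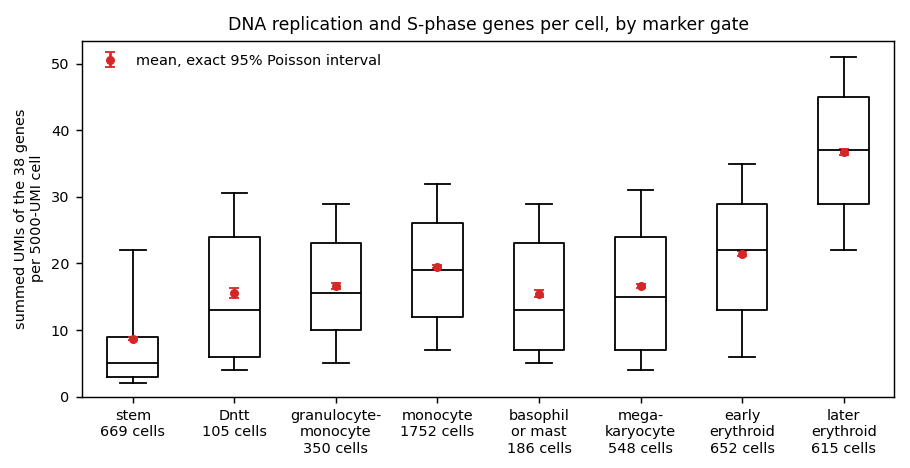
Summed UMIs of the 38 genes per 5000-UMI cell (y axis) in 8 marker gates (x axis). Boxes give quartiles and median, whiskers the 10th and 90th percentiles, and red points the mean with its exact 95% Poisson interval. The stem gate has a median of 5 and the later erythroid gate one of 37.

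Cells of the stem gate were also shallower, with a median of 8606 UMIs before thinning against 30168 and 33278 in the early and later erythroid gates, and depth moved with the level within gates. Stem gate cells below their median depth had 4.64 UMIs of the 38 genes (4.42 to 4.88) and those at or above it 12.7 (12.4 to 13.1). The same split gave 17.1 and 25.8 in the early erythroid gate, 18.6 and 20.5 in the monocyte gate, and in the reverse order 39.7 and 33.9 in the later erythroid gate. Among cells of under 20000 UMIs the early erythroid sum was 1.61-fold (1.54 to 1.69) that of the stem gate, below the 2.17-fold (2.10 to 2.24) of the monocyte gate, and the later erythroid sum was 4.11-fold (3.88 to 4.35) in 44 cells. Among deeper cells, of which the stem gate had 20, the early erythroid sum was 1.55-fold (1.39 to 1.74), the later erythroid sum 2.29-fold (2.05 to 2.57) and the megakaryocyte sum 1.09-fold (0.966 to 1.22). The mitochondrial share moved with the level too. Stem gate cells with a share under 5% had 10.9 UMIs of the 38 genes and those with 5% or more had 5.48, and among cells under 5% the early erythroid sum was 1.95-fold (1.88 to 2.02). The part of depth and of the mitochondrial share in the differences was not tested, and fewer dividing cells and fewer transcripts per dividing cell cannot be told apart in a sum.

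**Figure D2:**
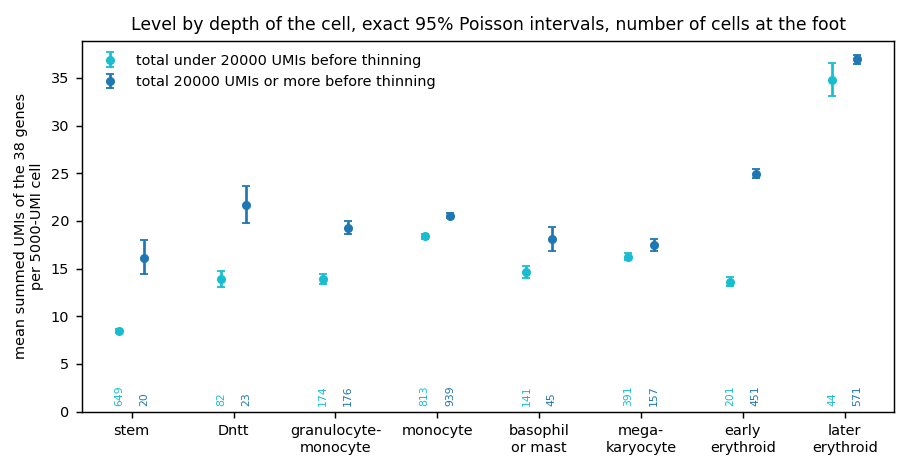
Mean summed UMIs of the 38 genes per 5000-UMI cell (y axis, exact 95% Poisson intervals) in 8 marker gates (x axis), for cells of under 20000 UMIs and of 20000 or more before thinning. Numbers at the foot are cells. Early erythroid cells stand at 13.6 in the shallower and 24.9 in the deeper cells, and later erythroid cells at 34.8 and 36.9.

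A gene was counted as 2-fold higher when its ratio over the stem gate was 2 or more, among genes with 50 or more UMIs in both gates together. In the early erythroid gate 28 of 38 members were 2-fold higher and none was 2-fold lower, where 10.4% of all 9168 genes compared were 2-fold higher and 22.1% were 2-fold lower. The median member stood at 2.66-fold and the median of all genes at 0.90-fold. In the later erythroid gate 35 of 38 were 2-fold higher against 14.6% of all genes and none was 2-fold lower against 31.3%, with medians of 4.56-fold and 0.83-fold. The monocyte gate had 26 of 38 against 10.7% of all genes. The granulocyte-monocyte gate had 20 of 36 compared against 4.33%, the megakaryocyte gate 19 of 36 against 3.63%, the Dntt gate 14 of 32 against 3.92%, and the basophil or mast gate 13 of 35 against 5.36%. Among cells of under 20000 UMIs the early erythroid count was 9 of 35, against 3.97% of all genes, and the later erythroid count 27 of 32, against 11.4%. The monocyte count there was 27 of 38, against 10.3%. Among deeper cells, with 20 in the stem gate, the monocyte count was 7 of 38, against 18.2%. The granulocyte-monocyte count was 2 of 25 (11.4%), the megakaryocyte count 1 of 23 (8.74%) and the basophil or mast count 0 of 10 (5.55%). The early and later erythroid counts were 16 and 26 of 38, against 21.3% and 22.8%.

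Gene by gene, 34 of the 38 had their highest level in the later erythroid gate and 36 had their lowest in the stem gate. Hells and Ung were highest in the monocyte gate, Cdca7 in the granulocyte-monocyte gate and Rfc2 in the basophil or mast gate. Chaf1b was lowest in the Dntt gate and Cdca7 in the later erythroid gate.

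**Figure D3:**
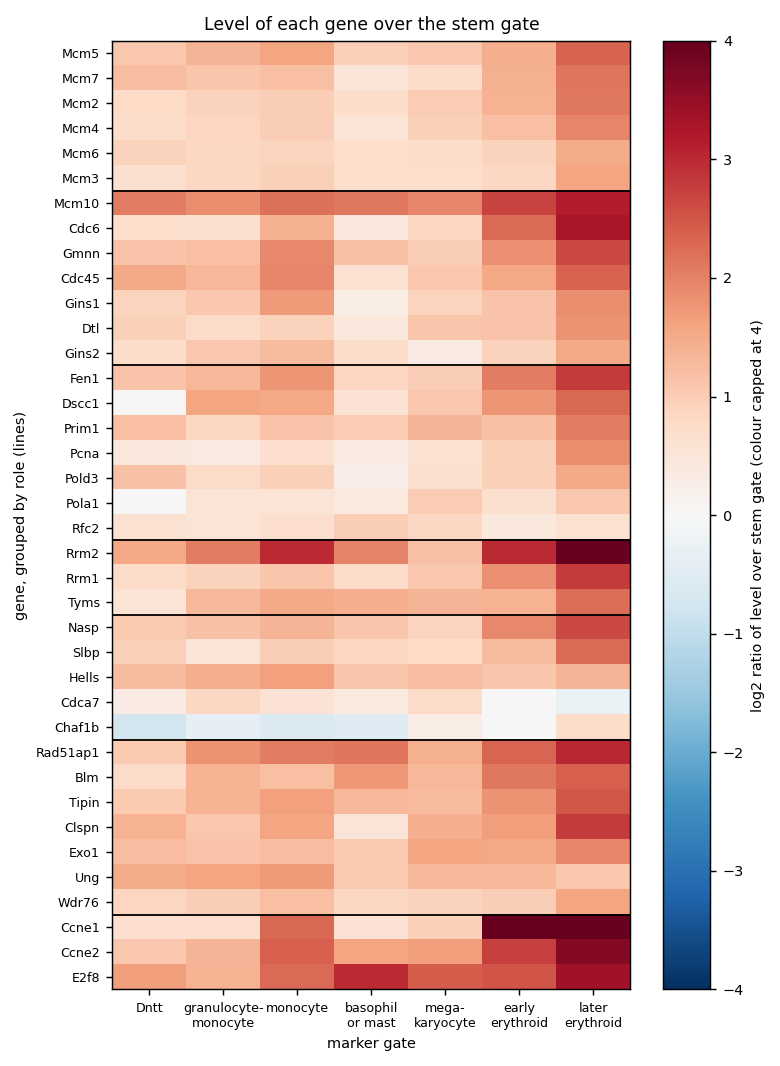
Log2 ratio of the level of each of the 38 genes over the stem gate (colour, capped at 4) in the other 7 marker gates (x axis), with genes grouped by role (y axis). Single squares of low genes rest on few UMIs. The strongest squares are Ccne1 in both erythroid gates and Rrm2, Ccne2 and E2f8 in the later erythroid gate. Cdca7 and Chaf1b are near 0 in the early erythroid gate. Cdca7 is highest in the granulocyte-monocyte gate and Chaf1b in the later erythroid gate.

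All 38 genes were found as protein-coding genes in the GENCODE M21 annotation of GRCm38, on 16 chromosomes. Counts of Chaf1b may be shared with Gm49617, which overlaps it on the same strand, and Pcna, Tyms and Nasp have named pseudogenes to which reads could be split. The RefSeq promoter table for GRCm38.p6, with 250 bases before and 50 after each start, had a window for 29 of them. The E2F letters TTTCCCGC, TTTGGCGC, TTTCGCGC or TTTGCCGC, on either strand, were in 11 of 32 member windows (34.4%), in 30.3% of windows of 61 other replication genes, in 0 of 14 windows of mitotic genes, and in 2.26% of all 32851 windows. The letters CCAAT, on either strand, were in 62.5% of member windows and 37.4% of all windows. The letters TTTGAA, which a motif of late cell cycle promoters contains, were in 18.8% of member windows, 17.9% of all windows and 85.7% of mitotic windows. In 1 place, in the window of Mcm7, an E2F and a CCAAT match overlapped. E2F letters were in the windows of Mcm3, Mcm5, Mcm6, Mcm7, Cdc6, Dtl, Pola1, Pold3, Hells, Cdca7 and Clspn.

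The stretches of 6 genes from RefSeq on GRCm38.p6 are shown, each of the 170 bases just before the start, read 5′ to 3′ on its strand. The start is the more upstream of the RefSeq and GENCODE starts, which for Rrm2 is that of GENCODE. The stretches set genes with E2F letters beside the pair of genes with the highest ratios over the stem gate, which had none in these windows. Capitals mark E2F and CCAAT matches on either strand, and where runs overlap they join.
Mcm5 (chr8:75109339-75109508, plus strand): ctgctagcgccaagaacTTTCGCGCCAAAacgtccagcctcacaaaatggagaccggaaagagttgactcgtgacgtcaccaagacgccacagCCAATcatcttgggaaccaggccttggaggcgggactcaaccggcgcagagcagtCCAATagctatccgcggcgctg
Mcm6 (chr1:128359706-128359875, minus strand): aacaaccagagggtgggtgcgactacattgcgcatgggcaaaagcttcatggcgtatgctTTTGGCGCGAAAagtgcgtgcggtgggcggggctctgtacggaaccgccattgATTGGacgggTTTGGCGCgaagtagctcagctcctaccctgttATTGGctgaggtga
Dtl (chr1:191575545-191575714, minus strand): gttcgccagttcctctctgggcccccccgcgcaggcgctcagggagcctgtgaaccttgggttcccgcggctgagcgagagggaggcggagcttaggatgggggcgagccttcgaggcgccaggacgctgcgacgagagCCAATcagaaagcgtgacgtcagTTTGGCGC
Pola1 (chrX:93632156-93632325, minus strand): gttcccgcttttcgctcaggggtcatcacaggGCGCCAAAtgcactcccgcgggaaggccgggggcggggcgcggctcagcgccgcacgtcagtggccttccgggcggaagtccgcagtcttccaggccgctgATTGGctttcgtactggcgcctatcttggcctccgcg
Ccne1 (chr7:38107535-38107704, minus strand): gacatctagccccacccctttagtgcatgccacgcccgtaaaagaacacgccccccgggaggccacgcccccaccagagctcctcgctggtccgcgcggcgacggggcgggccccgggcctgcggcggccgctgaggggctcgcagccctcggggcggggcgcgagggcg
Rrm2 (chr12:24708071-24708240, plus strand): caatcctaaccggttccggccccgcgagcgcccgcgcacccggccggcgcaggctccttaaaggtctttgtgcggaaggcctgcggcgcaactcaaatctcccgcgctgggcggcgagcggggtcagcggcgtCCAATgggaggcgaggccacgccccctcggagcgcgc
A match describes letters in a window, and its absence says only that these letters are not there. Mcm6 had 3 E2F matches and Mcm5 had 2, both with an overlapping pair on opposite strands. In Dtl the E2F letters were the last 8 bases before the start. Ccne1 had neither motif in the stretch, and Rrm2 had 1 CCAAT match. The genes with E2F letters included Cdca7, at 1.01-fold in the early erythroid over the stem gate, and Cdc6, at 4.78-fold, so members with the letters stood at both low and high ratios. Ratios of members with and without the letters were not compared as groups.

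The 6 subunits of the replicative helicase moved close to one another. As CPM, Mcm5 stood at 62.5 in the stem gate, 133 in the Dntt gate, 159 in the granulocyte-monocyte gate, 185 in the monocyte gate, 122 in the basophil or mast gate, 132 in the megakaryocyte gate, 170 in the early erythroid gate and 323 in the later erythroid gate. Mcm3, in the same order of gates, stood at 112, 175, 200, 217, 182, 184, 200 and 332. Every gate was thus above the stem gate for both subunits, and the later erythroid gate was above all others. Of the other subunits, Mcm2 went from 50.2 in the stem gate to 132 and 218 in the early and later erythroid gates, Mcm4 from 51.1 to 118 and 197, Mcm6 from 120 to 228 and 335, and Mcm7 from 92.4 to 248 and 405. Early erythroid ratios over the stem gate lay between 1.78 (1.57 to 2.03) for Mcm3 and 2.72 (2.32 to 3.21) for Mcm5, and 4 of 6 subunits were 2-fold higher, against 10.4% of all genes. Each subunit fell below 2-fold in at least 1 of the processing settings tried, Mcm2 to 1.99 and Mcm3 to 1.16. Later over early erythroid ratios lay between 1.47 and 1.90. After the summed level of each gate was divided out, Mcm2 and Mcm4 departed least of the 38 genes, with an SD over 8 gates of 0.09 and 0.10 on the log2 scale, and Ccne1 departed most, with 1.39.

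Genes that license and fire origins had a summed early erythroid level 2.98-fold (2.70 to 3.28) that of the stem gate, with 6 of 7 members 2-fold higher, against 10.4% of all genes. Mcm10, which helps to activate the helicase, had the highest ratio of this group, 6.55 (4.32 to 10.3). It stood at 7.77 CPM in the stem gate, 32.4 in the Dntt gate, 28.0 in the granulocyte-monocyte gate, 35.6 in the monocyte gate, 33.3 in the basophil or mast gate, 29.9 in the megakaryocyte gate, and 50.9 and 68.6 in the early and later erythroid gates. The stem gate was thus the lowest and the erythroid gates were the highest. Gins2, a GINS subunit, had the lowest ratio, 1.88 (1.46 to 2.44), and in the same order stood at 28.4, 47.6, 59.4, 67.7, 47.3, 35.4, 53.4 and 80.7. Here the early erythroid level lay below those of the granulocyte-monocyte and monocyte gates. Over the processing settings tried the early erythroid ratio ran from 3.90 to 6.96 for Mcm10 and from 2.87 to 5.32 for Cdc6. Those of the other genes of this group each fell below 2 in at least 1 setting.

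Cdc6, the loader of the helicase, was low in most gates and high in the erythroid ones. It stood at 14.1 CPM in the stem gate, 22.9 in the Dntt gate, 21.7 in the granulocyte-monocyte gate, 37.7 in the monocyte gate, 19.4 in the basophil or mast gate and 25.5 in the megakaryocyte gate. In the early and later erythroid gates it reached 67.2 and 136, ratios of 4.78 (3.48 to 6.70) and 9.65 (7.13 to 13.3) over the stem gate. Gmnn encodes geminin, which blocks a renewed loading of the helicase by binding Cdt1. Its levels in the same order of gates were 44.8, 99.0, 103, 169, 100, 88.3, 160 and 281, so the monocyte and early erythroid gates were close for Gmnn while Cdc6 was higher in the latter. This order depended on depth. Among cells of under 20000 UMIs Gmnn stood at 74.6 (58.7 to 93.5) in the early erythroid and 169 (156 to 182) in the monocyte gate. Cdc6 stood at 39.8 (28.4 to 54.2) and 37.9 (32.1 to 44.4) in the same cells. The remaining genes of this group, Cdc45, the GINS subunit Gins1 and Dtl, which directs licensing factors to destruction, were 2.90-fold, 2.20-fold and 2.19-fold in the early erythroid over the stem gate. Cdc45 and Gins1 were higher in the monocyte gate (51.6 and 40.2) than in the early erythroid gate (39.0 and 27.0).

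The group of fork proteins and polymerases differed least between the erythroid and stem gates, at 1.95-fold (1.82 to 2.08) in the early and 3.17-fold (2.98 to 3.37) in the later erythroid gate. Fen1, the flap nuclease that trims Okazaki fragments, had the highest early erythroid ratio, 4.13 (3.33 to 5.16). Its levels were 31.7 CPM in the stem gate, 70.5 in the Dntt gate, 79.4 in the granulocyte-monocyte gate, 107 in the monocyte gate, 58.1 in the basophil or mast gate, 63.1 in the megakaryocyte gate, and 131 and 220 in the erythroid gates. Rfc2, a subunit of the loader of the Pcna clamp, had the lowest, 1.33 (1.17 to 1.52). It stood at 118, 179, 174, 189, 235, 208, 157 and 180 in the same order, and was thus the gene of this group with its peak outside the erythroid lineage. Pcna was 1.92-fold in the early and 3.62-fold in the later erythroid gate, from 167 CPM in the stem gate. Pola1, the catalytic subunit of polymerase alpha, was 1.57-fold and 2.13-fold, and Prim1, the primase subunit, 2.27-fold and 4.18-fold. Pold3, a subunit of polymerase delta, and Dscc1, of an alternative clamp loader, were 1.92-fold and 3.38-fold in the early erythroid gate.

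Nucleotide supply had a summed ratio of 3.72 (3.35 to 4.14) in the early and 8.24 (7.46 to 9.12) in the later erythroid gate. Rrm2, the small subunit of ribonucleotide reductase, whose level limits the enzyme in the cell cycle, stood at 16.1 CPM in the stem gate, 47.6 in the Dntt gate, 66.3 in the granulocyte-monocyte gate, 127 in the monocyte gate, 64.5 in the basophil or mast gate and 36.5 in the megakaryocyte gate. In the early and later erythroid gates it stood at 129 and 402, ratios of 7.96 (5.99 to 10.8) and 24.9 (18.9 to 33.3). The monocyte and early erythroid levels were close over all depths, and the later erythroid level was 3.12-fold (2.79 to 3.50) the early one. Among cells of under 20000 UMIs Rrm2 stood at 105 (94.8 to 115) in the monocyte and 39.8 (28.4 to 54.2) in the early erythroid gate. Its partner Rrm1, the large subunit, was 3.53-fold and 6.90-fold over the stem gate. Tyms, thymidylate synthase, had the lowest early ratio of this group, 2.64 (2.21 to 3.16), with levels of 51.7, 76.2, 128, 147, 143, 132, 137 and 245 in the same order of gates.

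Chromatin genes of the list did not move together. Nasp, a histone chaperone, stood at 74.4 CPM in the stem gate, 152 in the Dntt gate, 167 in the granulocyte-monocyte gate, 190 in the monocyte gate, 161 in the basophil or mast gate, 137 in the megakaryocyte gate, and 280 and 468 in the erythroid gates, an early ratio of 3.76 (3.26 to 4.34). Chaf1b, a subunit of the chromatin assembly factor CAF-1, stood at 67.3 in the stem gate and in the same order at 40.0, 51.4, 45.4, 47.3, 81.8, 67.2 and 112. Its early erythroid ratio was 0.999 (0.825 to 1.21), and it was lower than in the stem gate in the Dntt, granulocyte-monocyte, monocyte and basophil or mast gates, with a monocyte ratio of 0.675 (0.572 to 0.799). Cdca7, a partner of the remodeller Hells, was at 1.01-fold (0.863 to 1.19) in the early and 0.83-fold (0.70 to 0.98) in the later erythroid gate. Hells itself was 2.14-fold and 2.58-fold, and Slbp, which binds the stem-loop of histone messages, 2.42-fold and 4.80-fold. The ratio of Chaf1b in the early erythroid gate lay between 0.64, in cells of under 20000 UMIs, and 1.14 over the processing settings tried, and that of Cdca7 between 0.83 and 1.18, on both sides of 1.

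In the checkpoint and repair group 6 of 7 members were 2-fold higher in the early erythroid gate, against 10.4% of all genes. Rad51ap1, a factor of homologous recombination, had the highest ratio, 5.05 (3.53 to 7.40). It stood at 11.1 CPM in the stem gate, 22.9 in the Dntt gate, 38.3 in the granulocyte-monocyte gate, 45.4 in the monocyte gate, 48.4 in the basophil or mast gate, 29.9 in the megakaryocyte gate, and 55.8 and 88.8 in the erythroid gates. Wdr76 had the lowest, 1.97 (1.46 to 2.66), with 21.2, 38.1, 41.7, 49.2, 37.6, 40.5, 41.7 and 63.7 in the same order. Blm, a helicase of the RecQ family, was 4.31-fold, Tipin, a fork protection factor, 3.47-fold, Clspn 3.20-fold and Exo1, a 5′ to 3′ exonuclease, 2.90-fold. Clspn, the claspin adaptor of the Chek1 checkpoint kinase, reached 6.99-fold in the later erythroid gate. Ung, which removes uracil from DNA, was 2.50-fold in the early and 2.10-fold in the later erythroid gate. Over the processing settings tried only Rad51ap1, Blm and Tipin of this group stayed above 2-fold in the early erythroid gate. Their lowest ratios were 2.95, 3.04 and 2.05.

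The cyclin E genes and E2f8 together had the highest summed ratio of the groups, 8.93 (6.80 to 11.9) in the early and 19.6 (15.1 to 26.0) in the later erythroid gate. Ccne1, cyclin E1, was low outside the erythroid and monocyte gates. It had 12 UMIs in the 669 stem gate cells, or 3.59 CPM, and stood at 5.71 in both the Dntt and the granulocyte-monocyte gate, 17.8 in the monocyte gate, 5.38 in the basophil or mast gate and 6.93 in the megakaryocyte gate. In the early erythroid gate it stood at 73.0, a ratio of 20.4 (11.4 to 39.9), and in the later erythroid gate at 190, a ratio of 52.9 (30.1 to 103). Ccne2, cyclin E2, also had 12 UMIs in the stem gate, and its levels in the same order of gates were 3.59, 7.62, 9.14, 18.7, 10.8, 11.3, 23.9 and 45.9. The monocyte and early erythroid gates were therefore close for cyclin E2, at 18.7 (16.0 to 21.8) and 23.9 CPM (18.9 to 29.9), and far apart for cyclin E1. The gap for cyclin E1 was absent among cells of under 20000 UMIs. Ccne1 stood there at 19.2 (15.2 to 23.9) in the monocyte and 13.9 (7.62 to 23.4) in the early erythroid gate, with overlapping intervals. E2f8, a repressor of the E2F family, stood at 10.2 in the stem gate, 32.4 in the Dntt gate, 26.9 in the granulocyte-monocyte gate, 48.9 in the monocyte gate, 80.6 in the basophil or mast gate, 54.7 in the megakaryocyte gate, and 58.0 and 104 in the erythroid gates. Its ratio of 7.93 in the basophil or mast gate was the highest of all members there.

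Depth within the early erythroid gate separated some of these genes more than others, in a choice of genes made after their values were seen. Ccne1 stood at 13.9 CPM (7.62 to 23.4) in early erythroid cells of under 20000 UMIs and at 99.3 (86.8 to 113) in deeper ones, and Rrm2 at 39.8 and 168. E2f8 stood at 58.7 and 57.6 in the same cells, with overlapping intervals. In the later erythroid gate the 44 shallower cells had 173 of Ccne1 (122 to 237) and the deeper ones 191 (176 to 208), so that depth made no difference beyond counting error there.

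From early to later erythroid cells the sum was 1.71-fold (1.68 to 1.75), and 4 of 38 members were 2-fold higher, against 4.20% of all genes. These were Rrm2 (3.12), Ccne1 (2.60), Clspn (2.18) and Cdc6 (2.02). Over the processing settings tried the ratio ran from 2.44 to 10.96 for Rrm2 and from 2.02 to 12.4 for Ccne1, with the highest of both in cells of under 20000 UMIs, where the later gate held 44 cells. It ran from 1.69 to 3.74 for Clspn and from 1.73 to 3.08 for Cdc6, which were therefore not 2-fold higher in every setting. The median member was at 1.66-fold and the median of all genes at 0.94-fold. For 36 members the interval lay above 1. The exceptions were Cdca7, at 0.82 (0.69 to 0.97), and Ung, at 0.84 (0.65 to 1.08). Cdca7 stayed below 1 in every setting tried, while Ung ranged from 0.80 to 1.09. These gates are split by membrane genes, which stood at 0.39 UMIs per cell in the early and 4.51 in the later gate.

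The neutrophil gates had no such step. The sum was 16.0 UMIs per cell (15.6 to 16.5) in early and 15.6 (15.0 to 16.2) in later neutrophil cells, a ratio of 0.972 (0.926 to 1.02). Relative to the stem gate these were 1.79-fold (1.72 to 1.86) and 1.74-fold (1.66 to 1.82). Of 36 members compared, 18 were 2-fold higher in early neutrophil cells, against 7.37% of all genes, and 14 in later ones, against 7.07%. Between later and early cells 0 of 34 members were 2-fold higher, where 0.41% of all genes were, and 1 was 2-fold lower, where 1.05% of all genes were lower. That member was E2f8, at 34.0 CPM in early and 15.4 in later cells, a ratio of 0.452 (0.225 to 0.846). Ung was at 0.658 (0.430 to 0.988) and Mcm4 at 1.35 (1.01 to 1.80). Rrm2 had the highest ratio of the members over the stem gate in both neutrophil gates. It stood at 138 and 166 CPM, 8.29-fold and 9.98-fold over the stem gate, and Gmnn stood at 190 and 209, 3.90-fold and 4.31-fold. Mki67, a proliferation gene outside the list, was lower in the early and later neutrophil gates (80.6 and 73.4 CPM) than in the stem gate (110), and stood at 973 in the later erythroid gate.

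**Figure D4:**
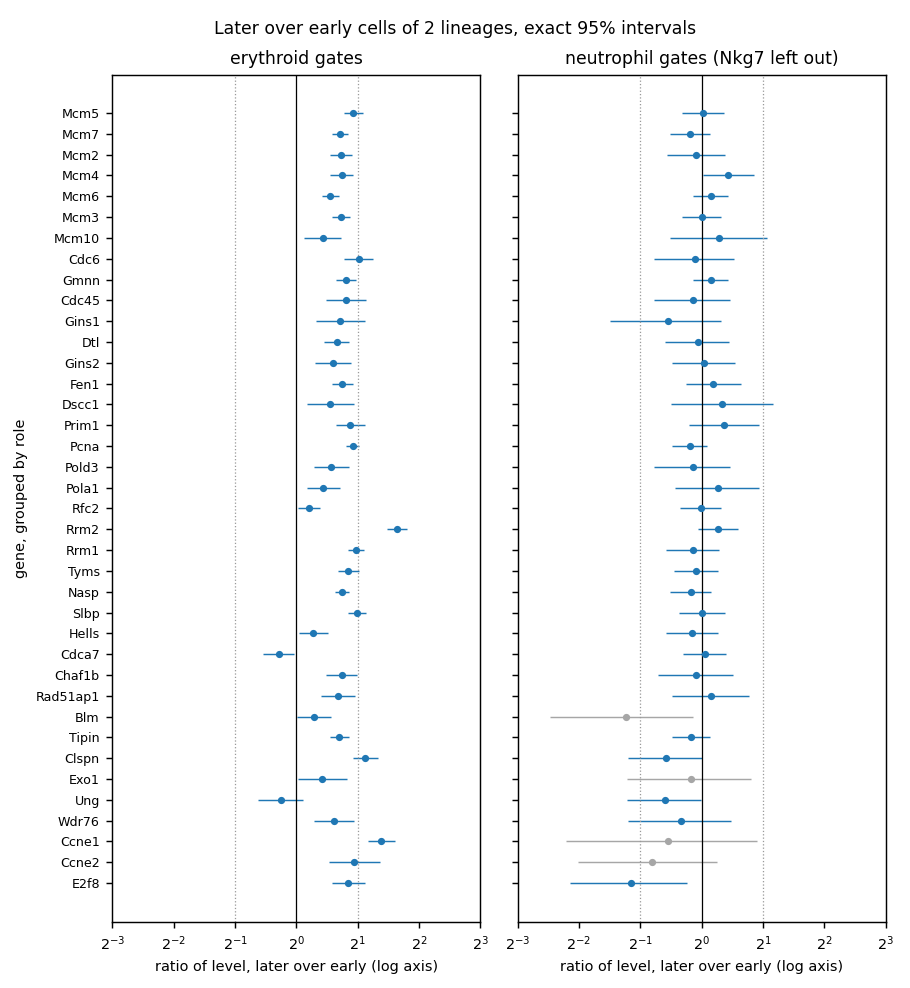
Ratio of the level in later over early cells (x axis, log scale) for each of the 38 genes (y axis), with exact 95% intervals, in the erythroid gates (left) and in the neutrophil gates without Nkg7 (right). Dotted lines mark 0.5 and 2, and grey points have under 50 UMIs. In the erythroid gates 36 genes lie above 1, and in the neutrophil gates most intervals cross 1.

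To see at which stage of the cycle the genes were high, 4877 cells of the 8 gates were divided by 2 lists that hold no member. Mitotic-high cells were the top 20% by 14 mitotic genes such as Ccnb1 and Plk1 (10 or more UMIs). Histone-high cells were the top 20% of the others by 9 replication-dependent histone genes (26 or more UMIs), whose messages accumulate in S phase. These are ranges of a score and not types, and 220 and 82 cells lay within 1 UMI of the limits. The sum was 17.4 UMIs per cell (17.3 to 17.6) in 3031 cells of neither kind, 26.6 (26.2 to 26.9) in 807 histone-high cells and 21.0 (20.7 to 21.3) in 1039 mitotic-high cells. In histone-high over neither cells 7 of 38 members were 2-fold higher, against 2.42% of all genes. They were Rrm2 (2.86), E2f8 (2.62), Tyms (2.61), Clspn (2.41), Rad51ap1 (2.22), Ccne1 (2.04) and Rrm1 (2.02). Ung was lower, at 0.572 (0.475 to 0.686). In mitotic-high over histone-high cells 2 members were 2-fold lower, against 0.614% of all genes, namely Ung at 0.283 (0.201 to 0.395) and Hells at 0.483 (0.418 to 0.557). Ung stood at 59.3 CPM in neither, 34.0 in histone-high and 9.62 in mitotic-high cells. These ranges hold the gates in unequal parts, since 323 of the 1039 mitotic-high cells were later erythroid. Within the early erythroid gate alone, 3 of 38 members were 2-fold higher in histone-high over neither cells, against 1.23% of all genes, namely Rrm2 (2.31), Cdc45 (2.27) and Clspn (2.26). Tyms was at 1.86 and Ccne1 at 1.62 there, and Ung was at 1.01 (0.641 to 1.54), so its lower level in the pooled histone-high cells was not seen within this gate. In mitotic-high over histone-high cells of this gate Hells was at 0.308 (0.187 to 0.493), and Ung was at 0.273 (0.113 to 0.596) on fewer than 50 UMIs.

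Within a gate the histone-high cells had more of the 38 genes than the cells of neither kind, in all 8 gates. The ratio was largest in the stem gate, at 3.12 (2.77 to 3.50), where 12 histone-high cells had 25.4 UMIs each against 8.14 in the 616 others. It was smallest in the monocyte gate, at 1.13 (1.10 to 1.16). With limits set within each gate, a choice made after the data were seen, all 8 ratios were above 1, but that of the stem gate was 1.25 (1.15 to 1.35) and the largest was that of the Dntt gate, 1.77 (1.57 to 1.99). Among histone-high cells the early erythroid sum was 1.10-fold (0.978 to 1.24) that of the stem gate and the monocyte sum 0.919-fold (0.820 to 1.03), differences within counting error. The later erythroid sum was 1.55-fold (1.38 to 1.74), the Dntt sum 1.19-fold (1.02 to 1.39) and the granulocyte-monocyte sum 0.844-fold (0.744 to 0.960). All of these rest on the 12 histone-high cells of the stem gate, and variation from cell to cell lies outside the intervals.

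Mitotic-high cells differed between lineages. They had fewer UMIs of the 38 genes than the cells of neither kind in the monocyte gate (12.0 against 20.7, ratio 0.577), the basophil or mast gate (9.34 against 15.0), the megakaryocyte gate (10.8 against 17.0) and the granulocyte-monocyte gate (11.7 against 16.3). In the early erythroid gate they had 21.1 against 19.9, a ratio of 1.06 (1.02 to 1.11), and in the later erythroid gate 38.1 against 32.2, a ratio of 1.18 (1.14 to 1.22). In the stem gate they had 12.1 against 8.14. In the Dntt gate they had 12.1 against 14.1. Among mitotic-high cells the early and later erythroid sums were 1.74-fold (1.58 to 1.92) and 3.14-fold (2.87 to 3.44) that of the stem gate. The basophil or mast sum was 0.771-fold (0.662 to 0.896) and the megakaryocyte sum 0.891-fold (0.801 to 0.991). Both were below the 41 mitotic-high cells of the stem gate, though variation from cell to cell lies outside these intervals. The erythroid gates thus kept their level in cells rich in mitotic transcripts, and the myeloid and megakaryocyte gates did not. With limits set within each gate the ratios of mitotic-high over neither cells were 0.575 in the monocyte gate, 1.09 in the early erythroid gate and 1.21 in the later erythroid gate.

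**Figure D5:**
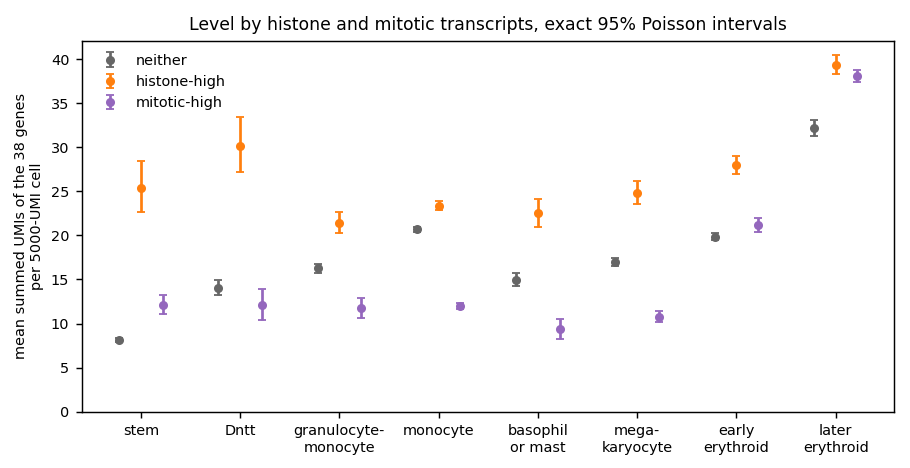
Mean summed UMIs of the 38 genes per 5000-UMI cell (y axis, exact 95% Poisson intervals) in 8 marker gates (x axis), for mitotic-high, histone-high and remaining cells. Histone-high cells are above the remaining cells in every gate, and mitotic-high cells are below them in the monocyte gate (12.0 against 20.7) and above them in the later erythroid gate (38.1 against 32.2).

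Across single cells the members were only loosely tied to one another, as is usual for sparse counts. Over the 351 pairs of the 27 members with a UMI in 50 or more cells of each of 4 gates, the median Pearson correlation was 0.19 in stem, 0.11 in early erythroid, 0.09 in monocyte and 0.05 in later erythroid cells. These cells share 1 library and 1 depth after thinning, and the values are given as a description. The sum correlated with the histone list at 0.30 in the stem, 0.34 in the early erythroid and 0.11 in the monocyte gate, and with the mitotic list at 0.09, 0.07 and -0.44.

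Of 61 further replication genes that are not members, 59 could be compared between the early erythroid and stem gates. There 30 were 2-fold higher, against 10.4% of all genes, and 5 were 2-fold lower, against 22.1%. Their median ratio was 2.05. In the later erythroid gate 43 of 60 were 2-fold higher, against 14.6% of all genes, and 7 were 2-fold lower, against 31.3%, with a median of 3.12. Subunits of the origin recognition complex were 2-fold higher in 4 of 6 cases in the early gate, against the same 10.4%, with Orc1 at 4.53 (2.39 to 9.32) and Orc2 at 3.49 (2.79 to 4.41). Among nucleotide genes Dut, which removes dUTP, was at 3.97 (3.61 to 4.38) and Tk1, thymidine kinase, at 3.71 (2.86 to 4.85). Ccna2, cyclin A2, was at 4.10 (3.19 to 5.34). E2f2, an activating E2F factor, was at 4.33 (2.06 to 10.2) in the early and 29.5 (15.3 to 65.3) in the later erythroid gate, from 2.69 CPM in the stem gate. Its early value rests on fewer than 50 UMIs in both gates together, so it is not among the 59 genes compared there.

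The 5 that were 2-fold lower in the early erythroid gate were 3 regulators of cycle entry, Cdkn1c, Cdkn1a and Rbl2, besides Pold4 and Rrm2b. Cdkn1c encodes p57, a kinase inhibitor known from quiescent stem cells, and stood at 69.4 CPM in the stem gate, 2.15 in the early and 0.325 (1 UMI) in the later erythroid gate, ratios of 0.03 (0.01 to 0.06) and 0.0047 (0.00012 to 0.026). Cdkn1a, which encodes p21, was at 0.356 (0.192 to 0.629), and Rbl2, which encodes the retinoblastoma relative p130, at 0.426 (0.326 to 0.553). Pold4, the small subunit of polymerase delta, was at 0.352 (0.279 to 0.441) and Rrm2b, the p53-induced subunit of ribonucleotide reductase, at 0.349 (0.229 to 0.519). Rrm2b thus went in the opposite direction to its paralogue Rrm2.

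The 10 genes outside the list whose levels followed the sum most closely over the 8 gates, among 8632 genes ranked by Pearson correlation of log2 levels, were Atad5 (0.991), Cdt1 (0.990), Pmf1 (0.987), Aurka (0.986), A430005L14Rik (0.986), Smc2 (0.983), Fignl1 (0.983), Hist1h2an (0.982), Cdk1 (0.979) and Cenpp (0.979). Atad5, whose product unloads Pcna from DNA, stood at 21.8 CPM in the stem gate and 57.7 and 103 in the erythroid gates. Cdt1, the partner of Cdc6 in loading the helicase, stood at 23.9, 73.6 and 154. Among the members themselves the correlation with the sum of the other 37 ran from 0.987 for Mcm2 to -0.295 for Cdca7, with Rfc2 at 0.394, Chaf1b at 0.445 and Ung at 0.514. The 8 gates share 1 library, and the values are a description.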

How the data were processed

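The authors processed 1 10x Chromium 3′ single-cell library with Cell Ranger 6.0.2 and mm10, per the labels and methods, and deposited UMI counts per gene and barcode, not normalized. The labels also describe a bulk RNA kit, which the values do not have the form of. The study's filter was applied (UMIs between 1000 and 50000, genes between 1000 and 6500, mitochondrial share under 7%). Cells were thinned without replacement to 5000 UMIs (seed 1). A list of a committed lineage was passed at 3 UMIs. Cells passing exactly 1 such list took its gate, and cells passing several were left out. The stem, Dntt, granulocyte-monocyte and Flt3 gates were set among cells passing no such list. Gates under 50 cells gave no value. Levels are summed UMIs, per cell or per 1000000 UMIs (CPM), with exact Poisson intervals. Ratios have conditional binomial and shares Clopper-Pearson intervals (scipy 1.17.1). Scrublet (scanpy 1.11.5) marked 265 cells (3.47%) as doublets, which were removed only in an alternative. On simulated early erythroid over stem counts of 7222 genes, 95.8% of intervals held the known fold. The simulated cells of a gate varied by counting alone, so coverage in the real cells, which varied more, was not checked. In each role the genes with the highest and lowest early erythroid ratio were described in every gate, besides the helicase subunits, Ccne1, Ccne2, Cdc6, Gmnn and E2f8. Members and lists were chosen with earlier results of these data known.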

Additional observations from a re-analysis of the deposited data

Results flagged for a closer look

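Cells outside the 8 gates carried the 38 genes too. Some of those that passed several lists entered the neutrophil gates without Nkg7, a setting in which 562 cells still passed several. The 1686 cells that passed several marker lists had 17.3 UMIs of them per 5000-UMI cell (17.1 to 17.5), and the 578 cells that passed the T and NK cell list alone had 17.2 (16.9 to 17.6), both above the 8.70 of the stem gate. Barcodes removed by the upper limits on UMIs and genes, 213 in number, had 23.5 (22.8 to 24.1), a level between those of the early and later erythroid gates.

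The ratio of mitotic-high cells over cells of neither kind lay on opposite sides of 1 in the monocyte gate (0.577, 0.558 to 0.596) and in the later erythroid gate (1.18, 1.14 to 1.22). With 1 library the difference was not tested.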

How the results depend on the processing

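No ratio of the summed level of a gate over the stem gate changed direction under the alternatives tried, whereas the single-gene ratios of Chaf1b and Cdca7 in the early erythroid gate lay on both sides of 1. The early erythroid ratio over the stem gate ran from 4.11 to 25.6 for Ccne1, from 2.44 to 8.94 for Rrm2 and from 1.98 to 4.67 for Fen1. The early erythroid sum over the stem gate was 2.77 with a second random thinning that also set the gates anew and 2.52 when the same thinning kept them, since 80.0% of stem and 67.0% of early erythroid cells were shared. It was 2.25 without thinning, 2.69 with lists passed at 2 UMIs, 1.95 with a mitochondrial share under 5%, 2.59 without a cell filter, 2.34 with Nkg7 left out and 1.61 in cells of under 20000 UMIs, and the count of members 2-fold higher was 9 in the last of these and between 19 and 34 in the others. Later over early erythroid was 1.63 with the second thinning and gates, 1.51 unthinned, 1.65 and 1.78 with lists passed at 5 and 2 UMIs, and 1.68 without a cell filter. The later neutrophil sum over the stem gate was 1.88, 1.42, 1.84 and 1.39 with the second thinning and gates, unthinned, with lists passed at 2 UMIs and under the 5% limit. Its count of 14 of 36 members (7.07% of all genes) was 8 of 27 (8.28%) at 3000 UMIs, 6 of 38 (5.92%) unthinned, 7 of 31 (6.81%) under the 5% limit and 5 of 18 (10.8%) with a minimum of 200 UMIs. The Flt3 gate reached 50 cells only with lists passed at 5 UMIs (63 cells), where its sum was 2.20-fold and 26 of 34 members were 2-fold higher, against 5.13% of all genes. The moves with the second thinning exceed the counting intervals, so these understate the error. The granulocyte-monocyte and basophil or mast gates shared 54.6% and 46.8% of their cells between the thinnings. No paired analysis was possible because there is 1 library. Settings with Nkg7 left out, with kept gates and by depth were chosen after seeing the data.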
